A study of Mus musculus with 12 samples.

Results

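The genes described are 10 members of the mouse Notch pathway: the receptors Notch1, Notch2, Notch3 and Notch4, the ligands Jag1, Jag2, Dll1 and Dll4, and the target genes Hes1 and Hey1. They were listed by name, and all probe sets annotated to 1 of these symbols alone were taken, which gave 19 of 34945 such probe sets and 10 of 18193 genes. RNA was measured on 12 single-colour arrays in 6 groups of 2: mouse kidney cortex tissue, kidney medulla tissue, progenitor cells derived from cortex or from medulla, and organoids derived from the progenitor cells of each region. Per the labels' protocols, progenitor cells were cultured on a fibroblast feeder layer and organoids were differentiated in 3D Matrigel. The labels name no strain, age, genotype or agent and do not say whether feeder cells were removed before RNA was taken. Replicates are called biological, but nothing ties them to animals or cultures, so the p-values measure the spread between these arrays.

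Notch receptors are membrane proteins that are activated by ligands of the Jagged and Delta-like families on a neighbouring cell. Ligand binding exposes the receptor to an ADAM protease and then to gamma-secretase, and the freed intracellular domain enters the nucleus, where it joins the DNA-binding protein RBPJ and a Mastermind coactivator. Hes1 and Hey1 encode repressors that are classic targets of this complex. In the kidney the pathway is known for the patterning of nephron segments and for the choice between principal and intercalated cells of the collecting duct, and Notch4 and Dll4 are best known from endothelium, Notch3 from vascular smooth muscle and pericytes.

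Nephron segment markers were bright in tissue, and most of them were dim in culture. All 10 proximal tubule and all 6 loop of Henle markers lay above the median signal of both arrays in each tissue group. In progenitor cells 0 (cortex) and 3 (medulla) of the proximal tubule markers and 1 of the loop markers did so in each region, while all 8 renal epithelial markers lay above it in both. The summed proximal tubule signal was 147790 and 207160 units on the medulla tissue arrays and 204720 and 220650 on the cortex tissue arrays. Between regions limma called 0 of the 10 proximal tubule markers, against 0.338% of all genes. At an unadjusted p under 0.05 the count was 0, against 9.07%. Their median log2 difference was -0.31 for medulla minus cortex, against 0.01 for all genes. The tissue arrays labelled medulla thus carried a summed proximal tubule signal that overlapped that of cortex. Added poly-A control RNA had median log2 signals of 7.96 to 8.83 in tissue, 7.03 to 7.37 in progenitor cells and 1.21 to 1.88 in organoids. The 3′ over 5′ log2 difference of Gapdh, a measure of RNA integrity and labelling, ranged from -0.23 to 0.18 in tissue, from -0.41 to -0.30 in progenitor cells and from 0.87 to 1.67 in organoids. That of actin ran the other way, from 0.94 to 1.63 in tissue, 0.16 to 0.19 in progenitor cells and -0.0015 to 0.15 in organoids. Each of these measures also differed between tissue and progenitor cells with no overlap of arrays. Stage and these labelling differences thus cannot be told apart in any comparison between stages, with or without organoids.

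In progenitor cells compared with tissue, Notch1, Notch2, Jag1 and Hes1 rose, Notch3 and Notch4 fell, and Jag2, Dll1, Dll4 and Hey1 were not called. In organoids compared with progenitor cells, Hey1, Notch2 and Jag1 rose, while Notch1, Notch3, Notch4, Jag2, Dll1 and Hes1 fell. The 2 target genes thus moved in opposite directions at the second step: Hes1 fell by 1.50 on the log2 scale and Hey1 rose by 4.40. The changes come from limma with Benjamini-Hochberg adjustment over 13031 genes and are differences of log2 signal after an offset of 15.2 units was added to each signal, which shrinks differences of dim genes. A gene is called at an adjusted p under 0.05. Both steps share the progenitor arrays, so their values are set side by side and not correlated.

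These counts stand beside a large general change. For progenitor cells minus tissue 6 of 10 members were called (4 higher, 2 lower), and 72.7% of all genes were (36.8% higher, 35.9% lower). For organoids minus progenitor cells the count was 9 of 10 (3 higher, 6 lower), against 72.3% (28.1% and 44.3%). For organoids minus tissue it was 8 of 10 (3 higher, 5 lower), against 79.7% (33.1% and 46.6%). The median log2 difference of the members was 0.42, -0.99 and -0.53 in these comparisons, and that of all genes was 0.03, -0.29 and -0.29. Of the 17 member probe sets above the brightness filter 10, 13 and 13 were called, against 69%, 71.7% and 79.4% of all probe sets. The number of calls among the members is therefore near the background. The filter itself favoured some of them: Hey1 passed it through organoids alone, Dll4 through tissue alone, Notch4 through tissue and medulla progenitors, and Jag2 and Dll1 through tissue and progenitor cells.

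**Figure D1:**
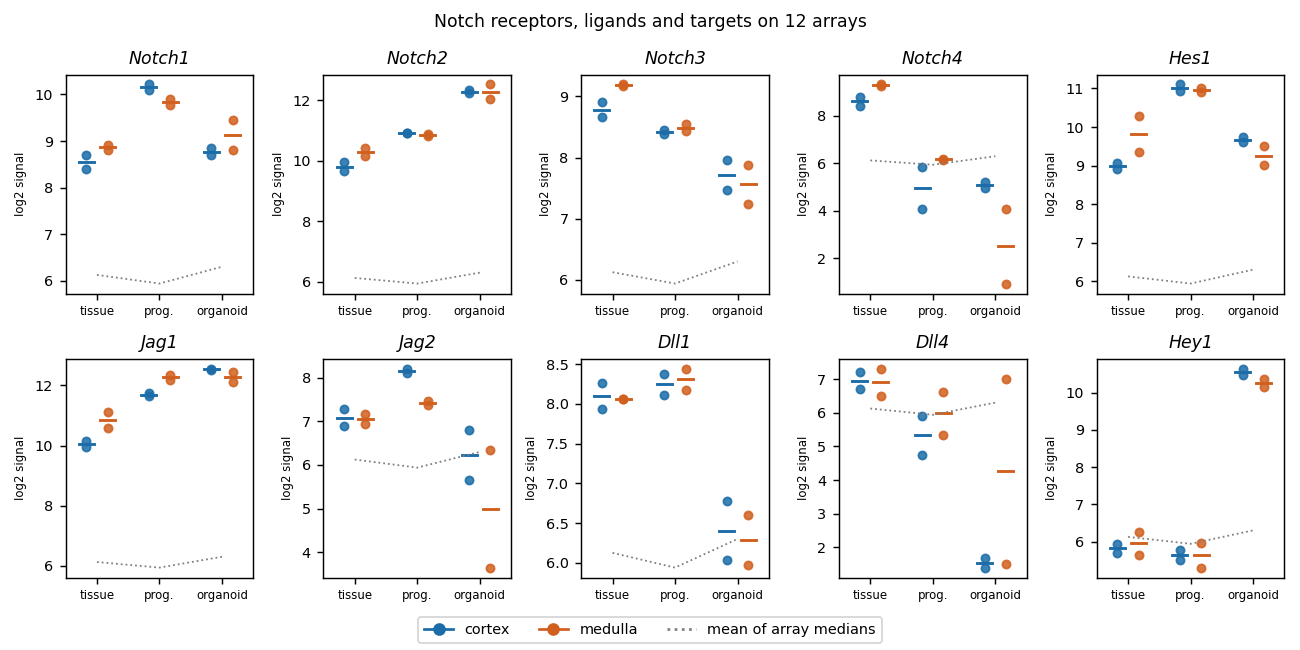
Log2 signal (y axis) of the probe set that stands for each gene in tissue, progenitor cells (prog.) and organoids (x axis); each point is 1 of 12 arrays, bars are means of the 2 arrays of a group, blue is cortex and orange medulla, and the dotted line is the mean of the array medians of each stage. Hey1 lies between 5.30 and 6.25 on the tissue and progenitor arrays and between 10.14 and 10.65 on the organoid arrays.

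The 250 bases before the start of Jag1, Notch2, Notch3 and Notch4 are shown from RefSeq (GRCm38.p6), 5′ to 3′ on the gene's strand, without bases inside the annotated gene. With both regions averaged, the brightest probe sets of Jag1 and Notch2 were called higher at both steps and those of Notch3 and Notch4 lower. The second step was 0.01 for Jag1 in medulla and for Notch4 in cortex, not called in either. The second Notch2 probe set was not called at the first step, and that of Notch3 was called at neither. Capitals mark matches to the N-box CACNAG on either strand, the sequence class bound by HES repressors.
Jag1, chr2:137116521-137116770 (minus strand): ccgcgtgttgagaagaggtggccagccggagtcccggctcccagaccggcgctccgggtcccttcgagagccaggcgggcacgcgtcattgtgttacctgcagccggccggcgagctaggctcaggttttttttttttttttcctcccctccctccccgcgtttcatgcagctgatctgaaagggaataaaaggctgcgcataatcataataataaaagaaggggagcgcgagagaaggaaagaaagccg
Notch2, chr3:98013288-98013537 (plus strand): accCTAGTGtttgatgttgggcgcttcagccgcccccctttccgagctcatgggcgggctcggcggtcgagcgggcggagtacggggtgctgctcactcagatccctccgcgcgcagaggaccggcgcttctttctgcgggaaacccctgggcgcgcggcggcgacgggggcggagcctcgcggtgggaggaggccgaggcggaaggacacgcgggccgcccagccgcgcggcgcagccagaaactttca
Notch3, chr17:32166897-32167140 (minus strand): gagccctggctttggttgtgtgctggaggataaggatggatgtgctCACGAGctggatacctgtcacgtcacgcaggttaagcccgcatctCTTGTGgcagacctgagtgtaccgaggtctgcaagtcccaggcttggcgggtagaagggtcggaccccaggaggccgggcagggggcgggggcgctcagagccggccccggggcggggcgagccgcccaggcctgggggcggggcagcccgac
Notch4, chr17:34564045-34564285 (plus strand): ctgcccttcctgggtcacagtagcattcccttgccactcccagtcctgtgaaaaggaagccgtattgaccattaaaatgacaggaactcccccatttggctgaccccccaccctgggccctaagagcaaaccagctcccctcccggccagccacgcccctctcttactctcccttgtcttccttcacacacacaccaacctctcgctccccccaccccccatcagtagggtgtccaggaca
Of the 10 members 8 had a promoter window (9 windows of 300 bases, from 250 before to 50 after a start), and Hes1 and Hey1 had none. The RBPJ core TGGGAA, searched on both strands, was in 0 of the 9 windows and in 25.6% of the 32851 mouse windows of that length. CACNAG was in 5 of the 9 (Notch1, Notch2, Notch3, Dll4 and 1 of 2 Dll1 windows) and in 42.5% of all, and CACGTG in 0 of the 9 and in 7.15% of all. GC content was 55.7% in the Jag1 window, 73.0% in Notch2, 70.0% in Notch3 and 58.3% in Notch4, against a median of 52.7%. The Notch2 window held 41 CG pairs and the Notch4 window 5. These matches describe the windows and do not locate a binding site.

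The receptors divided into those kept or raised in culture and those that fell. Notch1, the receptor whose role in cell fate choice is best studied, had log2 signals of 8.40 and 8.71 in cortex tissue, 8.92 and 8.81 in medulla tissue, 10.21 and 10.09 in cortex progenitors, 9.78 and 9.89 in medulla progenitors, 8.69 and 8.85 in cortex organoids and 9.46 and 8.80 in medulla organoids. All 4 progenitor arrays lay above all others. Notch1 rose by 1.25 ± 0.15 (SE, adjusted p = 1.17e-05) from tissue to progenitor cells and fell by 1.02 (SE 0.15, adjusted p = 7.33e-05) from these to organoids. Organoids and tissue overlapped (0.23 ± 0.15, adjusted p = 0.185), and without medulla organoid replicate 2 organoids were called higher (0.39, adjusted p = 0.00862). Its second probe set rose in progenitor cells too (0.89, adjusted p = 0.00138) but was not called between progenitor cells and organoids (-0.21, adjusted p = 0.337) and lay above tissue in organoids (0.67, adjusted p = 0.00685).

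Notch2, the receptor needed for proximal nephron fate in the developing kidney, climbed at each step. Its log2 signals were 9.65 and 9.96 in cortex tissue, 10.42 and 10.17 in medulla tissue, 10.93 and 10.92 in cortex progenitors, 10.87 and 10.81 in medulla progenitors, 12.34 and 12.23 in cortex organoids and 12.53 and 12.06 in medulla organoids. No array of a stage overlapped with one of another stage. The rise to progenitor cells was 0.82 ± 0.12 (adjusted p = 4.69e-05) and the rise to organoids 1.40 ± 0.12 (adjusted p = 5.48e-07), which placed organoids 4.67-fold above tissue (2.22 ± 0.12, adjusted p = 5.18e-09). A dimmer second probe set was not called between tissue and progenitor cells (-0.28, adjusted p = 0.574) and rose by 3.55 to organoids (adjusted p = 8.02e-06). That probe set passed the brightness filter through organoids alone, so its rise to organoids was favoured by the filter. With the mean of both probe sets the first rise lost its call (0.27, adjusted p = 0.245) and the second grew to 2.48.

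Notch4 had the largest fall among the receptors. It stood at 8.43 and 8.81 in cortex tissue and at 9.33 and 9.28 in medulla tissue, at 4.08 and 5.86 in cortex progenitors and 6.15 and 6.20 in medulla progenitors, and at 5.19 and 4.95 in cortex organoids and 0.92 and 4.05 in medulla organoids. The 4 tissue arrays lay above all 8 culture arrays, and the 2 medulla organoid arrays were far apart. The difference from tissue was -2.98 ± 0.29 in progenitor cells (adjusted p = 1.72e-06), or 7.91-fold, and -3.93 ± 0.29 in organoids (adjusted p = 1.15e-07). All 4 organoid arrays were below their array medians, so the second fall (-0.95 ± 0.29, adjusted p = 0.0119) lies between dim values and depends on the offset, with -1.79 under no offset and -0.44 under an offset equal to the median signal. It was -1.91 in medulla arrays alone and 0.01 in cortex arrays alone, and -0.65 (adjusted p = 0.0624) without cortex progenitor replicate 2. Notch4 passed the brightness filter through tissue and medulla progenitors and not through organoids, so falls from tissue and falls to organoids were favoured. The other 2 Notch4 probe sets did not reach the brightness filter.

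Notch3 fell less and stayed above the array median on every array. Its values were 8.66 and 8.91 in cortex tissue, 9.16 and 9.20 in medulla tissue, between 8.38 and 8.55 in progenitor cells, and 7.47 and 7.97 in cortex and 7.24 and 7.88 in medulla organoids, with no overlap between stages. The difference was -0.51 ± 0.18 to progenitor cells (adjusted p = 0.0211) and -0.76 ± 0.18 from there to organoids (adjusted p = 0.00211). The first difference was -0.67 in medulla (adjusted p = 0.0361) and not called in cortex (-0.36, adjusted p = 0.238). Its call was lost without cortex tissue replicate 2 (-0.45, adjusted p = 0.0785), medulla tissue replicate 2 (-0.51, 0.0533), cortex progenitor replicate 1 (-0.50, 0.0624) or medulla progenitor replicate 1 (-0.49, 0.065). Both calls rest on a probe set whose name marks it as shared between transcripts. The other probe set was not called at either step (-0.30, adjusted p = 0.313, and 0.45, adjusted p = 0.129), and with the mean of both the second fall was -0.16 (adjusted p = 0.365).

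Markers of vessel cells are set beside these 2 receptors. From tissue to progenitor cells Notch3 changed far less (-0.51, its second probe set not called) than Notch4 (-2.98). The summed signal of 13 endothelial markers was 10948 to 21431 units in tissue, 800.45 to 1011.6 in progenitor cells and 635.91 to 1200.4 in organoids. From tissue to progenitor cells 13 of 13 fell, against 35.9% of all genes. In each tissue group 13 lay above the array medians, against 3 in cortex and 5 in medulla progenitors, so a fall was favoured by the filter. Pecam1, the endothelial adhesion molecule, had log2 signals of 8.56 to 9.08 in tissue, 2.59 to 5.21 in progenitor cells and -0.19 to 3.78 in organoids. For Cdh5, the endothelial cadherin, these ranges were 8.64 to 9.12, 4.78 to 5.20 and 3.93 to 5.06. For 9 smooth muscle and pericyte markers the sums were 6820.2 to 11108, 2384.1 to 5815.2 and 402.56 to 920.71 units. Of 8 tested 6 fell and 1 rose to progenitor cells, against 35.9% and 36.8% of all genes. In each tissue group 8 lay above the array medians and in each progenitor group 5, so a fall was favoured here too. The pericyte marker Rgs5 ranged from 11.23 to 11.92 in tissue and from 1.91 to 6.70 over the 8 culture arrays. Pdgfrb, a PDGF receptor of mesenchymal cells, ranged from 9.64 to 10.69 in tissue, 8.02 to 8.75 in progenitor cells and 5.36 to 9.24 in organoids. All 4 progenitor arrays also carried a higher sum of 11 fibroblast and feeder markers. It was 3862.3 to 7513.7 units in tissue, 11751 to 16703 in progenitor cells, 2159.5 and 2706.5 in cortex organoids and 8322.8 and 8860.9 in medulla organoids. Of the 11, 8 rose and 2 fell from tissue to progenitor cells, against 36.8% and 35.9% of all genes. From progenitor cells to organoids 1 rose and 9 fell, against 28.1% and 44.3%. Col1a1, a collagen gene on that list, read 9.46 to 10.17 in progenitor cells, 10.49 and 10.55 in cortex organoids and 12.03 and 11.78 in medulla organoids. The part of fibroblast signal in the progenitor levels of Notch1, Notch2, Jag1 and Hes1 was not tested. The part of vessel cells in the falls of Notch3 and Notch4 was not tested, and fewer cells of a type and less RNA per cell cannot be told apart in bulk RNA.

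**Figure D2:**
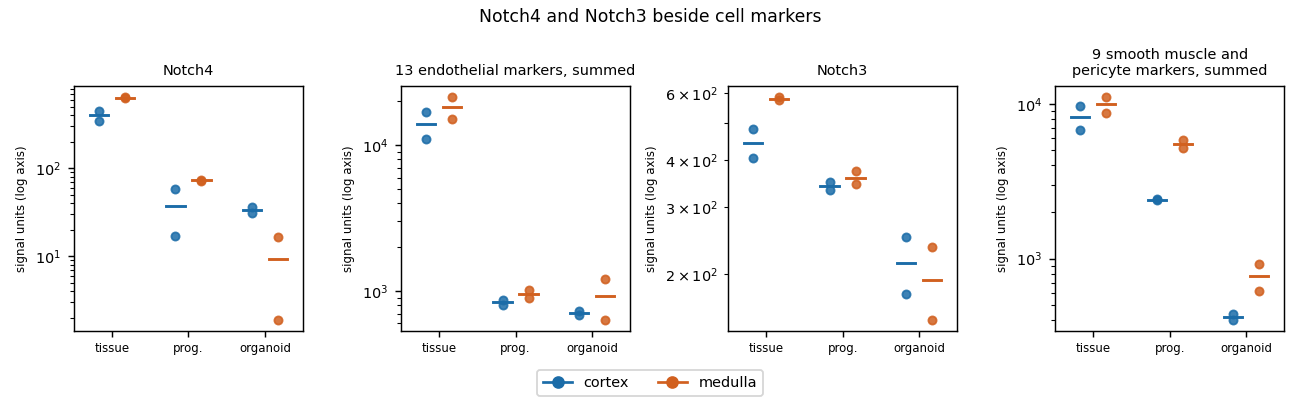
Unlogged signal (y axes, log scale) of Notch4, of the sum of 13 endothelial markers, of Notch3 and of the sum of 9 smooth muscle and pericyte markers by stage (x axis); points are single arrays, bars arithmetic means of 2 arrays, blue is cortex and orange medulla. Notch4 and the endothelial sum are high on the 4 tissue arrays and low on all 8 culture arrays, while Notch3 declines in smaller steps.

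Among the ligands Jag1 was raised in culture, while Jag2 and Dll1 fell from progenitor cells to organoids. Jag1, the ligand with a known part in nephron segment patterning, read 9.96 and 10.16 in cortex tissue, 11.12 and 10.59 in medulla tissue, 11.74 and 11.64 in cortex progenitors, 12.36 and 12.18 in medulla progenitors, 12.56 and 12.50 in cortex organoids and 12.45 and 12.10 in medulla organoids. Every culture array lay above every tissue array, whereas progenitor and organoid arrays overlapped. The rise was 1.51 ± 0.12 from tissue to progenitor cells (adjusted p = 3.19e-07) and 1.93 ± 0.12 from tissue to organoids (adjusted p = 2.84e-08), and both other Jag1 probe sets rose in both comparisons. From progenitor cells to organoids the difference was 0.42 ± 0.12 (adjusted p = 0.00902). It was 0.84 ± 0.18 in cortex (adjusted p = 0.00138) and 0.01 ± 0.18 in medulla (adjusted p = 0.982), and it lost its call when arrays were scaled to a common 75th percentile (0.29, adjusted p = 0.0615). The other 2 probe sets gave 1.84 and 0.91 for the same step.

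Jag2, the second Jagged ligand, was brightest in cortex progenitors. Its log2 signals were 7.28 and 6.90 in cortex tissue, 6.93 and 7.16 in medulla tissue, 8.21 and 8.11 in cortex progenitors, 7.37 and 7.47 in medulla progenitors, 6.80 and 5.66 in cortex organoids and 3.64 and 6.35 in medulla organoids. All progenitor arrays lay above all tissue arrays, but the difference was not called (0.66 ± 0.35, adjusted p = 0.11). The shared spread included the wide gap between the medulla organoid replicates, and the adjusted p was 0.00217 when only tissue and progenitor arrays were fitted, 0.0134 without medulla organoid replicate 1 and 0.0147 without replicate 2. Jag2 fell from progenitor cells to organoids by 1.79 (SE 0.35, adjusted p = 0.000653). Jag2 passed the brightness filter through tissue and progenitor cells and not through organoids, so lower values in organoids were favoured in both comparisons. Organoids lay below tissue (-1.12 ± 0.35, adjusted p = 0.0115), a call that was lost without cortex organoid replicate 2 (-0.89, adjusted p = 0.057), while the value was -0.67 without medulla organoid replicate 1. The second Jag2 probe set was not called in any stage comparison (-0.50, adjusted p = 0.0599, for organoids minus progenitor cells).

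Dll1, a Delta-like ligand, fell in organoids. It read 8.27, 7.94, 8.07 and 8.07 on the tissue arrays, 8.38 and 8.11 in cortex progenitors, 8.18 and 8.45 in medulla progenitors, and 6.03 and 6.78 in cortex and 6.60 and 5.98 in medulla organoids. The 4 organoid arrays lay below the other 8. The difference was 0.18 ± 0.21 for progenitor cells minus tissue (adjusted p = 0.451), -1.75 ± 0.21 for organoids minus progenitor cells (adjusted p = 1.25e-05) and -1.57 ± 0.21 for organoids minus tissue (adjusted p = 2.41e-05). The step to organoids was -1.67 ± 0.30 in cortex and -1.83 ± 0.30 in medulla. Dll1 passed the brightness filter through tissue and progenitor cells and not through organoids, so both falls to organoids were favoured. Only 1 probe set named Dll1 alone.

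Dll4, a Delta-like ligand of endothelium, lay above the array medians in tissue and on 2 of 8 culture arrays, and 1 organoid array stood apart. It read 6.71 and 7.20 in cortex tissue, 7.31 and 6.49 in medulla tissue, 5.91 and 4.75 in cortex progenitors, 5.34 and 6.63 in medulla progenitors, 1.69 and 1.40 in cortex organoids and 7.00 and 1.52 in medulla organoids. Medulla organoid replicate 1 thus lay at the tissue level and the other 3 organoid arrays far below. The difference between organoids and tissue was -2.18 ± 0.53 (adjusted p = 0.00254) and -1.43 without medulla organoid replicate 2. It was -2.94 in cortex arrays (adjusted p = 0.00404) and not called in medulla arrays, which overlapped (-1.41, adjusted p = 0.115). Since Dll4 entered the tests through tissue alone, a fall from tissue was favoured by the filter. The differences at the 2 single steps were not called (-1.03 ± 0.53, adjusted p = 0.101, and -1.14 ± 0.53, adjusted p = 0.0726). The second was -1.89 (adjusted p = 0.000323) without medulla organoid replicate 1, and the first was called without medulla organoid replicate 1 (adjusted p = 0.00867) or 2 (adjusted p = 0.00758), which lowers the shared spread. The other Dll4 probe set, which exceeded the array medians on both arrays of a group in tissue alone, differed at both steps (-0.82, adjusted p = 0.0102, and -0.84, adjusted p = 0.0086) and was not raised on that array, at 3.23. The endothelial marker sum on medulla organoid replicate 1 was 1200.4 units, the highest of the organoid arrays, and its part in the Dll4 value was not tested.

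**Figure D3:**
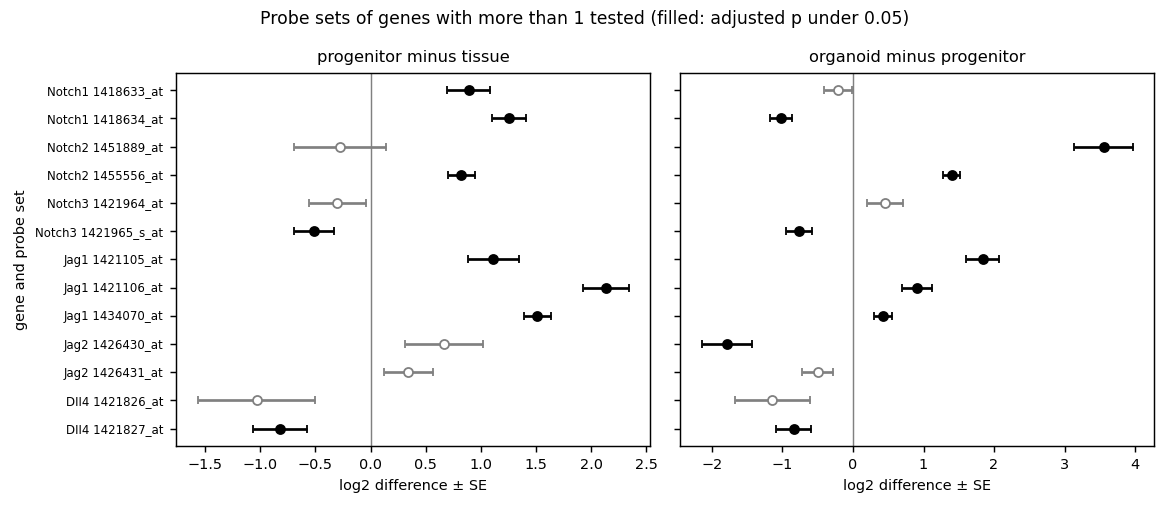
Log2 difference with its SE (x axes) for every probe set of the members with more than 1 probe set above the brightness filter (y axis), for progenitor cells minus tissue (left) and organoids minus progenitor cells (right); filled points have an adjusted p under 0.05 over 24193 probe sets. The 3 Jag1 probe sets lie right of 0 in both panels, whereas the 2 Notch3 probe sets lie on opposite sides of 0 in the right panel.

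The target genes diverged. Hes1, a repressor that is induced by Notch and by other signals, read 9.06 and 8.90 in cortex tissue, 10.28 and 9.35 in medulla tissue, 10.94 and 11.10 in cortex progenitors, 10.91 and 11.01 in medulla progenitors, 9.75 and 9.60 in cortex organoids and 9.02 and 9.49 in medulla organoids. The progenitor arrays lay above all others and differed among themselves by less than the tissue arrays did. Hes1 rose by 1.57 ± 0.18 (adjusted p = 6.36e-06) and then fell by 1.50 (SE 0.18, adjusted p = 1.1e-05), and organoids were not called against tissue (0.07 ± 0.18, adjusted p = 0.74). The last value joins 0.68 in cortex (adjusted p = 0.0294) and -0.55 in medulla (adjusted p = 0.072). The difference between the regions missed the threshold (-1.23 ± 0.36, adjusted p = 0.0572) and was called without medulla tissue replicate 2 (-1.68, adjusted p = 0.00711) or medulla organoid replicate 2 (-1.46, adjusted p = 0.0127).

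Hey1, a related repressor known from vessel and nephron development, had signals of 5.95 and 5.70 in cortex tissue, 6.25 and 5.65 in medulla tissue, 5.51 and 5.77 in cortex progenitors, 5.95 and 5.30 in medulla progenitors, 10.46 and 10.65 in cortex organoids and 10.35 and 10.14 in medulla organoids. On 6 of the 8 tissue and progenitor arrays Hey1 was below the array median, and the 4 organoid arrays lay far above them in both regions. Hey1 rose by 4.40 ± 0.20 from progenitor cells to organoids (adjusted p = 4.12e-09), or 21.1-fold, and organoids exceeded tissue by 4.20 ± 0.20 (adjusted p = 2.2e-09). It was not called between tissue and progenitor cells (-0.20 ± 0.20, adjusted p = 0.395). The gene entered the tests through its organoid arrays alone, so a difference was implied by the filter and its p is no independent support, and 1 probe set carries the result.

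**Figure D4:**
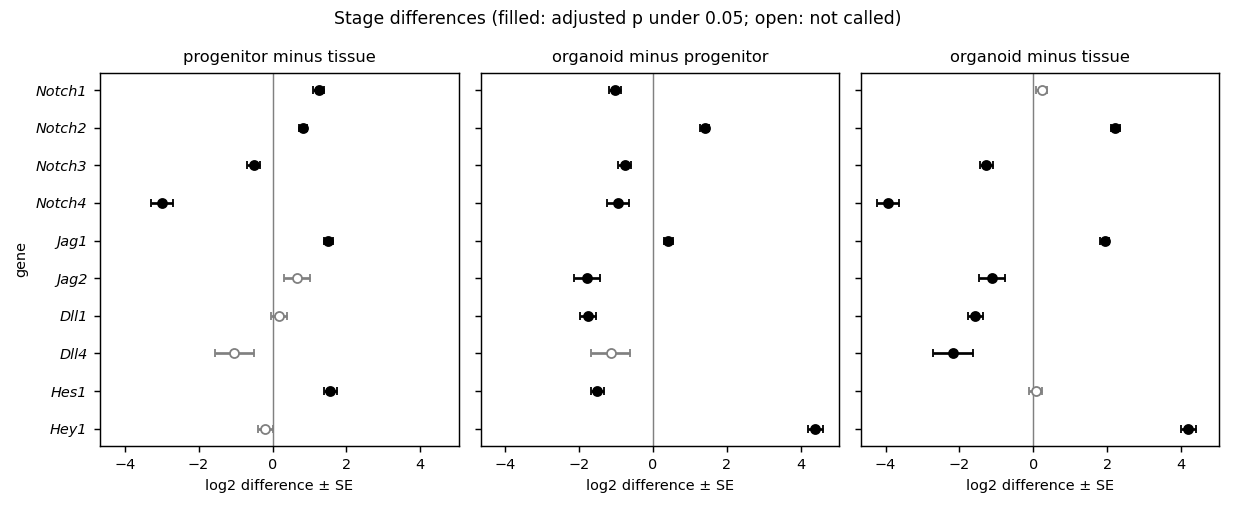
Log2 differences with SE (x axes) of the 10 members (y axis) for 3 stage comparisons, each of 4 arrays against 4; filled points have an adjusted p under 0.05. Hey1 has the largest positive value in the middle and right panels, and Notch4 the most negative value in the left and right panels.

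No member was called between medulla and cortex within a stage in limma by the probe set that stands for it. The second Notch1 probe set was called in organoids, with log2 signals of 8.25 and 7.49 in cortex and 8.62 and 9.11 in medulla (0.95 ± 0.28, adjusted p = 0.0393), the 1 member probe set called there against 14.2% of all probe sets. In tissue 0 of 10 members passed, against 0.338% of all genes, and 3 had an unadjusted p under 0.05, against 9.07%. In progenitor cells these were 0, against 0.315%, and 1, against 4.93%. In organoids they were 0, against 17.9%, and 1, against 31.7%. Jag1 was higher on both medulla arrays in tissue (0.78 ± 0.18, adjusted p = 0.112) and in progenitor cells (0.58 ± 0.18, adjusted p = 0.391). The tissue value was called without medulla tissue replicate 2 (1.05, adjusted p = 0.0156), and without either medulla organoid array (adjusted p = 0.0391 and 0.0389), and that of Hes1 was called without medulla tissue replicate 2 (0.82 ± 0.25, adjusted p = 0.286, with all arrays, and 1.28, adjusted p = 0.0157). Medulla tissue replicate 2 had the higher proximal tubule sum of the medulla pair, and the part of proximal tubule tissue in these values was not tested. Notch2 in tissue (0.48 ± 0.17, adjusted p = 0.373) and Notch4 in organoids (-1.07 ± 0.42, adjusted p = 0.0991, and -1.52, adjusted p = 0.019, without medulla organoid replicate 2) had unadjusted p under 0.05 too.

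By the brightest Jag1 probe set the order of medulla and cortex changed between stages, although the regions were not called different within any stage. The Jag1 medulla minus cortex difference was -0.25 ± 0.18 in organoids, and its change from tissue to organoids was -1.04 ± 0.25 (adjusted p = 0.0279), the 1 member called among 10 against 8.4% of all genes, and 3 had an unadjusted p under 0.05, against 24.6%: Jag1, Hes1 and Notch4 (-1.73 ± 0.59, adjusted p = 0.0959). By that probe set both medulla arrays exceeded both cortex arrays in tissue and progenitor cells. In organoids both lay below, narrowly for 1 of them (12.45 and 12.10 in medulla, 12.56 and 12.50 in cortex). The call was lost under 10 of 22 settings. Of these 7 left out 1 array each, namely cortex tissue replicate 1 or 2, medulla tissue replicate 1, cortex progenitor replicate 1 or 2 or cortex organoid replicate 1 or 2, with values between -1.13 and -0.77 and adjusted p between 0.051 and 0.118. The other 2 Jag1 probe sets gave -0.53 (adjusted p = 0.539) and -1.03 (adjusted p = 0.174). Medulla and cortex arrays overlapped in tissue for both of them, and in organoids for the first. For the change from progenitor cells to organoids 0 members were called, against 4.11%, and 2 had an unadjusted p under 0.05, against 19.7%: Jag1 (-0.83 ± 0.25, adjusted p = 0.0873) and Notch4 (-1.92 ± 0.59, adjusted p = 0.0937). Jag1 was called there without medulla organoid replicate 1 (-1.01, adjusted p = 0.0207) or either medulla tissue array (adjusted p = 0.0496 and 0.0493), and Notch4 without medulla organoid replicate 2 (-2.37, adjusted p = 0.0139). The Notch4 change from tissue to organoids was called without that array too (-2.18, adjusted p = 0.016). For the change from tissue to progenitor cells 0 were called, against 0.284%, and 2 had an unadjusted p under 0.05, against 7.16%: Hes1 (-0.88 ± 0.36, adjusted p = 0.612) and Notch2 (-0.57 ± 0.24, adjusted p = 0.62).

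Of the 73 other genes listed for the pathway 62 were tested. From tissue to progenitor cells 23 rose and 14 fell (59.7% called), and from progenitor cells to organoids 16 rose and 29 fell (72.6%), against 72.7% and 72.3% of all genes. In organoids minus tissue 23 rose and 27 fell (80.6%, against 79.7%). Of all genes 36.8% rose and 35.9% fell at the first of these steps, and 28.1% rose and 44.3% fell at the second. The counts by role below rest on 3 to 13 genes each and are to be read beside these shares. Each value rests on the brightest probe set of its gene. Of 3 other ligands tested 2 rose in progenitor cells and 1 fell in organoids. Each passed the brightness filter through progenitor groups, some with medulla tissue, and not through organoids. A fall to organoids was thus favoured, and so was a rise from tissue for the 1 that passed in progenitor cells alone. Of the 8 genes of receptor proteolysis 1 rose and 2 fell in progenitor cells, and 2 rose and 4 fell in organoids. Nicastrin (Ncstn), a gamma-secretase subunit, rose by 2.99 ± 0.15 from progenitor cells to organoids (adjusted p = 6.48e-09), and Aph1a, another subunit, fell by 2.92 (SE 0.15, adjusted p = 9.13e-09). Ncstn read 7.52 to 8.27 in the 8 tissue and progenitor samples and 10.74 to 11.06 in organoids, and Aph1a 11.29 to 11.59 and 8.16 to 9.08. With the mean of its probe sets the fall of Aph1a was much smaller (-0.57, adjusted p = 0.000155).

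The sugar transferases that modify receptors gave 5 rises and 2 falls of 9 in progenitor cells and 1 rise and 5 falls in organoids. Among the fringes, which tune the receptor's response to each ligand family, Lfng was not called between tissue and progenitor cells (0.25 ± 0.29, adjusted p = 0.45). It fell by 2.73 (SE 0.29, adjusted p = 3.8e-06) to organoids, with log2 signals of 6.26 to 7.04 before and 0.52 to 1.34 after. Lfng passed the brightness filter through medulla tissue and progenitor cells and not through organoids, so that fall was favoured. Mfng, which passed the brightness filter through tissue alone so that a fall from tissue was favoured, differed from tissue in progenitor cells by -1.76 ± 0.32 (adjusted p = 0.000331) and was not called from there to organoids (0.09 ± 0.32, adjusted p = 0.812). Rfng fell in progenitor cells (-0.88 ± 0.24, adjusted p = 0.00573) and was called higher in organoids (0.58 ± 0.24, adjusted p = 0.0453), where the arrays of the 2 stages overlapped. Medulla organoid replicate 1 stood at 10.85 against 9.20 to 9.53 on the other organoid arrays, the difference was 0.25 (adjusted p = 0.147) without it, and the call was lost under 18 of 22 settings, among them leaving out any 1 array other than medulla organoid replicate 2. Among 13 genes of ligand and receptor trafficking, 3 rose and 4 fell, then 5 rose and 4 fell. Dtx4, a Deltex family ubiquitin ligase, rose by 2.15 ± 0.26 and fell by 2.14 (SE 0.26, and -0.64 with the mean of its probe sets). Numbl, a relative of the Notch inhibitor Numb, fell by 2.06 (SE 0.53) in organoids. Numbl passed the filter through medulla tissue and progenitor cells and not through organoids, which favoured this fall.

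In the nucleus, Rbpj was not called at either step (-0.27 ± 0.13, adjusted p = 0.0894, and -0.05 ± 0.13, adjusted p = 0.761), with log2 signals between 9.65 and 10.52 on all arrays. Organoids were called below tissue (-0.32 ± 0.13, adjusted p = 0.0459), but the mean of the Rbpj probe sets turned the sign (0.30, adjusted p = 0.074) and the call was lost under 12 further settings of 22. Of these 9 left out 1 array each, all but cortex tissue replicate 1, cortex organoid replicate 2 and medulla organoid replicate 2, with values from -0.34 to -0.18 (adjusted p = 0.062 to 0.165). For progenitor cells minus tissue that mean gave 0.61 (adjusted p = 0.00225), and the brightest probe set was called without medulla organoid replicate 1 (adjusted p = 0.0207) or 2 (adjusted p = 0.0213). Of the 8 tested genes of nuclear activation 2 rose and 1 fell in progenitor cells and 3 rose and 3 fell in organoids. Maml2, a Mastermind coactivator, had log2 signals of 2.36 to 5.93 in progenitor cells and 8.73 to 9.51 in organoids (3.92 ± 0.44, adjusted p = 6.69e-06), but like Hey1 it passed the filter through organoids alone, so a difference was implied. Of 12 genes listed for nuclear repression and turnover 6 rose and 2 fell, then 4 rose and 7 fell. That list includes Kyat1, a kynurenine aminotransferase gene, named here because it is not a known part of the pathway. The counts of this role and of all 62 listed genes include it.

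Of 9 other genes known as Notch targets 4 rose and 3 fell in progenitor cells, against 36.8% and 35.9% of all genes. From progenitor cells to organoids 5 fell and 1 rose, against 44.3% and 28.1%. The gene that rose was the transcription factor Sox9, which read 9.55 to 9.71 before and 10.42 to 11.11 after. The feedback inhibitor Nrarp was not called in progenitor cells (-0.13 ± 0.22, adjusted p = 0.612) and fell in organoids (-0.63 ± 0.22, adjusted p = 0.0215). That call was lost without cortex progenitor replicate 1, medulla progenitor replicate 2 or cortex organoid replicate 2 (adjusted p = 0.0707, 0.0654 and 0.0613), and the value was -0.37 without medulla organoid replicate 2. Heyl passed the filter through tissue alone, which favoured a fall from tissue; it differed in progenitor cells by -1.24 ± 0.38 (adjusted p = 0.0114) and was not called from there to organoids (-0.08 ± 0.38, adjusted p = 0.858), and Hey2 and Hes5 did not reach the brightness filter in any group. The larger rises in progenitor cells were those of Cdkn1a, a cell cycle inhibitor (4.70 ± 0.18), of Sox9 (4.48 ± 0.29, and 2.78 with the mean of its probe sets), which passed the filter through its culture groups alone, and of Myc (3.30 ± 0.14), which respond to many other signals, while Id3 (-1.83 ± 0.15) and Gata3 (-1.96 ± 0.19), a collecting duct transcription factor, fell. Proliferation markers moved beside them. Of 7 tested 7 were higher in progenitor cells than in tissue, against 36.8% of all genes. All 7 were lower in organoids than in progenitor cells, against 44.3%. In each progenitor group 7 lay above the array medians, and in each tissue group 1 did, so a rise from tissue was favoured by the filter.

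Regional differences among these 62 genes were few outside organoids. In tissue limma called 0, against 0.338% of all genes, and 7 had an unadjusted p under 0.05 (against 9.07% of all genes). In progenitor cells it called 1 (1.61%, against 0.315%), Gata3, which was higher in medulla (1.81 ± 0.27, adjusted p = 0.0122) and lost its call when any 1 of the 4 progenitor arrays was left out (1.69 to 1.92, adjusted p = 0.104 to 0.183). In organoids it called 11 (17.7%, against 17.9%), 4 higher and 7 lower in medulla. Gata3 had log2 signals of 4.74 and 5.50 in cortex organoids and 9.19 and 9.12 in medulla organoids (3.54 ± 0.27, adjusted p = 3.62e-05). Eogt, which adds a sugar to extracellular receptor repeats, had 9.67 and 9.75 in cortex and 7.89 and 7.52 in medulla organoids (-1.93 ± 0.21, adjusted p = 0.000182). Id3 (1.31) and Myc (1.29) were higher in medulla organoids, and the repressor subunit Hdac2 (-0.97) and the receptor protease Adam17 (-0.86) lower. With the mean of all probe sets of a gene, Eogt (-0.34, adjusted p = 0.205), Hdac2 (-0.61, adjusted p = 0.0698) and Adam17 (-0.22, adjusted p = 0.336) were not called, and Adam17 was not called without cortex organoid replicate 2 either (-0.76, adjusted p = 0.0749). Id3, Hdac2 and Adam17 also lost their calls when only the organoid arrays were fitted (adjusted p = 0.0991, 0.0664 and 0.109). Without medulla organoid replicate 2 the count was 19, and without cortex organoid replicate 1 or 2 it was 7 or 6.

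**Figure D5:**
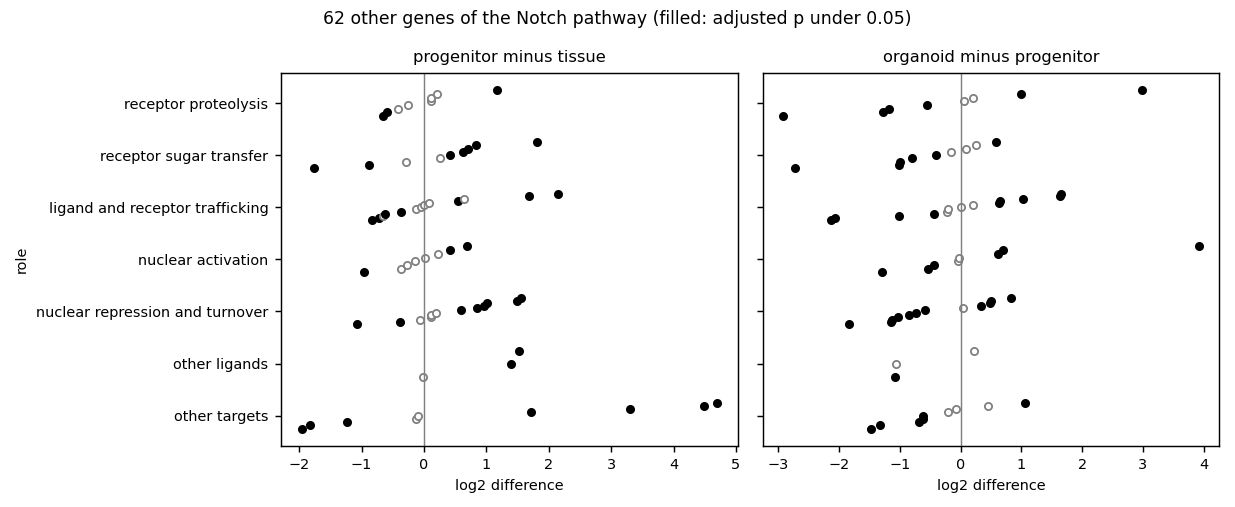
Log2 differences (x axes) of 62 other pathway genes by role (y axis), for progenitor cells minus tissue (left) and organoids minus progenitor cells (right); each point is a gene and filled points have an adjusted p under 0.05. Points lie on both sides of 0 in most roles; the largest value in the right panel is Maml2 at 3.92, and Aph1a is the lowest at -2.92.

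Some members shared a pattern over the 12 arrays, which share their groups and scaling, so the correlations only describe these arrays. Notch1 and Hes1 had a Pearson r of 0.828, both peaking in progenitor cells. Notch2 had r = 0.898 with Hey1 and 0.867 with Jag1, and Notch3 had 0.883 with Notch4. Hey1 and Dll1 ran opposite to each other (r = -0.96). Among all tested genes the closest to Hey1 were Ptcd1 (r = 0.996), Golph3l (0.995) and Ifnar2 (0.994). Those closest to Notch2 were Kif1c (0.993), Zscan12 (0.990) and Denn2b (0.989). Jag1 was followed most closely by Cyb5r1 (0.980), Mfsd6 and Cdkn2b (0.976 each), and Hes1 by Spag5 (0.986), Slc4a11 (0.970) and Blnk (0.967). Esam, an endothelial adhesion molecule on the marker list, was among the 3 closest to Notch4 (0.979), with Clmn (0.984) and Ddx46 (0.977). For Notch1 they were Pafah1b3 (0.975), Sub1 and Stx16 (0.971 each), and for Notch3 Kansl3 (0.980), Frem2 (0.968) and Crim1 (0.965). Jag2 came closest to Prdm11 (0.97), Atxn2l (0.960) and Patz1 (0.955), Dll1 to Mllt10 (0.987), Ints14 (0.985) and Pef1 (0.985), and Dll4 to Svbp (0.949), Ppard (0.944) and 3110009E18Rik (0.933).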

How the data were processed

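Total RNA from 12 samples, purified on RNeasy columns per the labels' protocols, was labelled with the GeneChip 3′ IVT PLUS kit and hybridised to single-colour arrays. The authors' deposited values are log2 signals, processed with MAS5 per the submitters' processing notes (version not given in the sources used here). Detection calls were not used here. Probe sets with no symbol or several were left out.

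Signals were unlogged, 15.2 units (the 25th percentile) were added, and log2 was taken again. Each gene was represented by its brightest probe set and tested when that exceeded the median of each array in at least 1 group. limma 3.58.1 (R 4.3.3) was fitted with 6 group means on all 12 arrays (eBayes with a variance trend, 6 residual degrees of freedom), two-sided, with Benjamini-Hochberg adjustment over 13031 genes, or over 24193 probe sets where probe sets are compared. The model was tested on simulated data. The number of arrays limits the precision. Alternatives were the offset, scaling, filter, probe set rule, variance trend, groups fitted, a replicate block and leaving out each array. Values within one region, and the crossed block, were added after seeing the data.

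The members, lists and tests were chosen with earlier results of these data known. All members are named, with the 6 largest called non-overlapping other pathway genes per comparison, 8 others chosen by name, 6 markers at most and the 3 genes most like each member.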

Additional observations from a re-analysis of the deposited data

Results flagged for a closer look

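Some medulla minus cortex differences, given in log2 units, were themselves different between stages by the test of that difference in limma (adjusted p under 0.05). For Jag1 the difference fell by 1.04 from tissue to organoids (adjusted p = 0.0279). That call was lost under 10 of 22 settings and was not made for either other Jag1 probe set. From progenitor cells to organoids the difference fell for Eogt (-1.96, adjusted p = 0.0049), Hdac2 (-0.93, adjusted p = 0.031) and its partner histone deacetylase Hdac1 (-0.82, adjusted p = 0.0228), and it grew for Gata3 (1.73, adjusted p = 0.0327). From tissue to organoids it grew for Gata3 (3.09, adjusted p = 0.00173) and Id3 (1.27, adjusted p = 0.0258). In the same comparison it fell for Eogt (-2.21, adjusted p = 0.00195), Adam17 (-1.36, adjusted p = 0.0107), Hdac2 (-1.14, adjusted p = 0.00853) and Hdac1 (-0.89, adjusted p = 0.0103). With the mean of all probe sets of a gene the calls of Eogt, Hdac2 and Adam17 were lost (adjusted p = 0.088 to 0.672). Leaving out 1 array ended the call, from progenitor cells to organoids, of Gata3 for 7 of 12 arrays, Hdac2 for 8 and Hdac1 for 6, and from tissue to organoids of Id3 for 4 and Adam17 for 2. Hdac1 is named because it passed this test. The summed fibroblast and feeder markers were 2159.5 and 2706.5 units in cortex organoids and 8322.8 and 8860.9 in medulla organoids, and their part in these differences was not tested.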

How the results depend on the processing

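The 42 member differences followed were all stage differences and those region differences with an unadjusted p under 0.05 in limma. Of these 24 were called. Over 566 alternative settings of the called differences 542 kept direction and call, 23 lost the call and 1 reversed. The settings share most of their data and are not independent. Of 403 settings of the uncalled differences 30 gave a call. The reversed values were 0.012 for Notch4 in organoids minus progenitor cells with cortex arrays alone, and, in organoids minus tissue, -0.0015 for Notch1 under 75th percentile scaling and -0.15 (quantile normalization), -0.17 (75th percentile scaling), -0.55 (medulla arrays alone), -0.16 (without medulla tissue replicate 2) and -0.049 (without medulla organoid replicate 2) for Hes1, whose values with 1 array left out spanned -0.16 to 0.29. Scaling to the 75th percentile moved the median of all genes by -0.12 in organoids minus progenitor cells and -0.22 in organoids minus tissue. The cause of these shifts was not tested. Among other pathway genes the mean of probe sets reversed Rbpj (0.61 for progenitor cells minus tissue and 0.30 for organoids minus tissue) and Nrarp (0.27 for progenitor cells minus tissue). Differences that were not called changed sign for Lfng in progenitor cells minus tissue (-0.023 to 0.52 with 1 array left out), for Rfng in organoids minus tissue (-0.62 to 0.033), and in organoids minus progenitor cells for Rbpj (-0.19 to 0.094), Mfng (-0.25 to 0.43; -0.0023 with 75th percentile scaling) and Heyl (-0.50 to 0.34; 0.012 with the median signal as offset).

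The 8 members called in organoids minus tissue became 5 with the filter at the 75th percentile, where fewer members are tested. Between regions in tissue, leaving out 1 array gave 0 to 2 members and 0 to 2 other pathway genes (2 and 2 without medulla tissue replicate 2, and 1 member without either medulla organoid array). In progenitor cells fitting only the groups compared gave 1 member, and 0 to 1 other pathway genes were called with 1 array left out. In organoids the mean of all probe sets gave 1 member and 6 other pathway genes, fitting only the groups compared gave 3 of the latter, and leaving out 1 array gave 0 to 4 members (4 without medulla organoid replicate 2) and 6 to 19 other genes. For the change of the region difference from tissue to progenitor cells, 0 to 1 other pathway genes were called with 1 array left out (1 without either medulla organoid array). From progenitor cells to organoids, quantile normalization and the mean of probe sets each gave 1 member, no variance trend gave 2 of the 4 other genes, and leaving out 1 array gave 0 to 3 members and 1 to 10 other genes, the highest without medulla organoid replicate 2. From tissue to organoids, the mean of probe sets, fitting only the groups compared and no variance trend each gave 0 members. The mean of probe sets and fitting only the groups compared each gave 3 of the 6 other genes, and leaving out 1 array gave 0 to 5 members and 4 to 15 other genes, again highest without medulla organoid replicate 2.

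All-gene counts moved most between regions. With only the groups compared they went from 44 to 1 in tissue, 41 to 145 in progenitor cells and 2339 to 240 in organoids, and with 1 array left out they spanned 14 to 229, 13 to 105 and 1058 to 4315. Without a variance trend the tissue count was 21, with the mean of probe sets 25, and with the median signal as offset the progenitor count was 63. For changes of the region difference the counts were 37, 535 and 1095, which became 71, 266 and 336 with only the groups compared and spanned 11 to 122, 122 to 2510 and 331 to 3182 with 1 array left out. The first was 23 without a variance trend.

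Equal replicate numbers are not said to mark a shared animal or culture, and deviations of same-numbered arrays correlated between -0.138 and 0.057 across groups. With a replicate block the member counts stayed 6, 9 and 8 for stages, 0 in each region comparison and 0, 0 and 1 for the changes between stages, and all-gene counts moved by less than 1.5 times (9414 against 9478 for progenitor cells minus tissue). With crossed numbers 54 genes were called between regions in tissue and 40 in progenitor cells, with 0 members.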
